A study of Mus musculus with 2 samples.

Results

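The nuclei described here came from the mouse ascending aorta and arch and are named after 3 genes, Lyz2, Mmp12 and Cybb. They are those in which these genes outweighed the genes of resident macrophages, smooth muscle cells, fibroblasts and neutrophils. They were chosen by these measured values themselves: among barcodes with at least 300 detected genes, a nucleus was a member when its summed UMIs (unique molecular identifiers, each counting 1 captured RNA molecule) of Lyz2, Mmp12 and Cybb came to at least 3. That sum also had to be no lower than the sum of F13a1, Mrc1 and Cd163, and above both the sum of Myh11, Acta2 and Lmod1 and the sum of Pdgfra and Dcn, with at most 1 UMI of S100a8 and S100a9. The rule took 208 of 39516 nuclei, 100 of 18863 in the Female library and 108 of 20653 in the Male library. They are set beside 1144 resident macrophage nuclei of the same libraries (466 Female and 678 Male), which had at least 4 UMIs of F13a1, Mrc1 and Cd163 and more of these than of either the Lyz2, Mmp12 and Cybb sum or the smooth muscle sum.

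All animals carried Wnt1-Cre and the Rosa26-mTmG reporter. Wnt1-Cre is active in the neural crest, and recombination switches the reporter for good, with tdTomato made before it and GFP after it. No treatment is named, and the labels give no age or strain. Aortas were pooled into 1 library per sex. The labels speak of 6 mice, without making plain whether that is for each pool, and of 2 technical portions per pool that the barcodes do not tell apart. Nuclear RNA was captured in droplets, so cytoplasmic RNA is largely outside what was measured.

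Circulating monocytes enter the vessel wall and mature into macrophages, while resident macrophages of the adventitia maintain themselves locally and are known by Mrc1, F13a1 and Lyve1. Lyz2 encodes lysozyme M, made by monocytes, macrophages and neutrophils and also by some lung epithelial cells. Mmp12 encodes macrophage elastase, which degrades elastin, and Cybb encodes the catalytic subunit of the phagocyte NADPH oxidase, which B cells use as well.

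The members were a like share of both libraries, 0.530% of Female nuclei (95% Clopper-Pearson interval 0.432 to 0.644%) and 0.523% of Male nuclei (0.429 to 0.631%). Set against members and resident nuclei together, they made up 17.7% (14.6 to 21.1%) of 566 Female nuclei and 13.7% (11.4 to 16.3%) of 786 Male nuclei. These intervals overlap, and they cover counting error only. Median depth was 3581 UMIs in Female and 3755.5 in Male members, against 2530 and 2779 UMIs in Female and Male resident nuclei. Single members held between 648 and 25928 UMIs in the Female library and between 792 and 24188 in the Male library. The doublet caller marked 4 Female and 6 Male members, against 54 and 95 Female and Male resident nuclei, and all were kept. The libraries shared 4286 barcode sequences, which included those of 21 Female and 29 Male members, with none a member in both.

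The rule genes were carried by different nuclei, as the plot of rule sums shows. The following values chose the members and are given as description only. Lyz2 (chromosome 10, 117277331 to 117282321, minus strand, GRCm38) had at least 1 UMI in 73 of 100 Female and 78 of 108 Male members, against 316 of 466 Female and 475 of 678 Male resident nuclei. Cybb (chromosome X, 9435252 to 9487771, minus strand) was detected in 79 Female and 78 Male members, against 141 Female and 205 Male resident nuclei. Mmp12 (chromosome 9, 7344381 to 7369499, plus strand, overlapping Mmp1b) was detected in 27 Female and 48 Male members, against 3 Female and 4 Male resident nuclei. In smooth muscle gated nuclei, where none of these genes belongs, the detected shares in the Female and Male libraries were 1.12% and 1.51% for Lyz2, 0.0930% and 0.195% for Mmp12, and 0.209% and 0.365% for Cybb, at median depths of 3987 and 3279 UMIs. Only 6 Female and 23 Male members held UMIs of Lyz2, Mmp12 and Cybb together, whereas 48 Female and 30 Male members held Lyz2 and Cybb without Mmp12. Lyz2 UMIs were concentrated in few nuclei, with 10 Female nuclei holding 1149 of the 2308 Lyz2 UMIs of Female members.

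**Figure D1:**
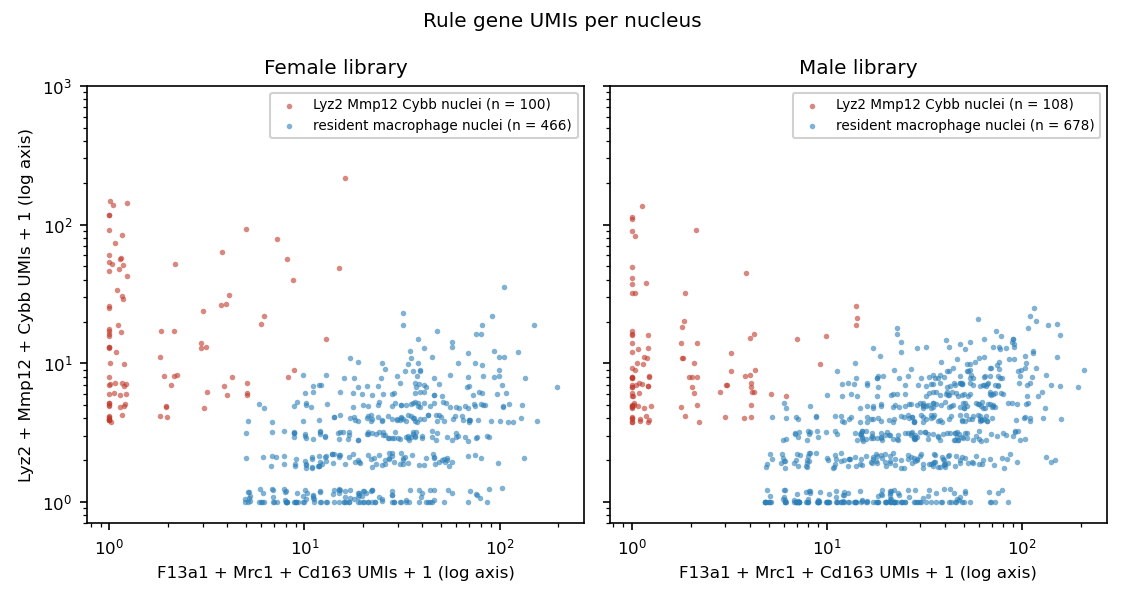
Each point is 1 nucleus, with its summed UMIs of F13a1, Mrc1 and Cd163 on the horizontal axis and of Lyz2, Mmp12 and Cybb on the vertical axis, both plus 1, on a log scale and spread by a small random shift so that points do not hide each other, for the Female (left) and Male (right) library. Members are red and resident macrophage nuclei blue, and the 2 classes are apart by construction, with member sums reaching 215 for Female and 136 for Male nuclei.

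Nuclei stood on both sides of the threshold of 3. The median rule sum was 12 UMIs in Female and 7 UMIs in Male members, and 11 Female and 15 Male members had the minimum of 3. Just outside, 28 Female and 17 Male nuclei met every other condition with 2 UMIs. The rule sum equalled that of F13a1, Mrc1 and Cd163 in 2 Female and 3 Male members, and 3 Female and 3 Male nuclei were left out for 1 UMI more of the resident genes. No UMI of F13a1, Mrc1 or Cd163 was found in 61 Female and 63 Male members.

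The label of macrophage nuclei held for most members but not for all, and the members fell into 5 groups that were drawn after their values were seen. Apart from the split by Mmp12 further on, they are given without a test. Mmp12-positive nuclei, with at least 1 Mmp12 UMI, numbered 27 in the Female library (27.0%, 18.6 to 36.8%) and 48 in the Male library (44.4%, 34.9 to 54.3%). At least 2 UMIs of Prg4, Alox15, Saa3 and Cd5l were found in 42 Female and 18 Male members. Of these, 1 Female and 2 Male nuclei also carried epithelial genes and are counted with the epithelial-gene nuclei, which leaves 41 Female (41.0%, 31.3 to 51.3%) and 16 Male (14.8%, 8.71 to 22.9%) Prg4 nuclei. Prg4 encodes the lubricating glycoprotein lubricin, Alox15 a 12/15-lipoxygenase, Saa3 an acute phase apolipoprotein and Cd5l a scavenger protein secreted by macrophages. A further 22 Female (22.0%) and 36 Male (33.3%) members met neither of these conditions and did not carry the epithelial or B-lineage genes described next. They are called the nuclei with neither. Mmp12 and these 4 genes were seldom found together. At least 1 UMI of the 4 genes was present in 1 of 27 Female Mmp12-positive nuclei (interval up to 19.0%) and in 0 of 48 Male ones (up to 7.40%), against 43 of 73 Female and 19 of 60 Male Mmp12-negative members.

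The remaining members carried genes of other cells. Nuclei with at least 20 UMIs of 16 epithelial genes numbered 3 Female and 6 Male. All 9 had Lyz2 UMIs, and Csf1r (the receptor for macrophage colony stimulating factor), Ptprc (the leukocyte antigen CD45), Cybb and Adgre1 (the macrophage antigen F4/80) were at 0 UMIs in them. They held 198 Female and 820 Male UMIs of Scgb1a1, the secretoglobin of airway club cells. Nuclei with at least 3 UMIs of 6 B-lineage genes numbered 7 Female and 2 Male, with 0 UMIs of Csf1r and of Lyz2, and with 24 Female and 10 Male UMIs of Pax5, the B-cell identity factor. Epithelial-gene nuclei were deep, with median UMIs of 14623 for Female and 9224 for Male nuclei, and gave 11.6% of all member UMIs, whereas B-lineage nuclei gave 2.64%. Counts over all genes are therefore also given without these 18 nuclei, and so are list counts that changed, an alternative added after the data were seen. Csf1r was detected in 26 of 27 Female and 44 of 48 Male Mmp12-positive nuclei, and in 31 of 41 Female and 11 of 16 Male Prg4 nuclei. Ptprc was detected in all 27 Female and in 40 Male Mmp12-positive nuclei, and in 31 Female and 11 Male Prg4 nuclei. In the nuclei with neither, Csf1r was detected in 18 of 22 Female and 20 of 36 Male nuclei, Ptprc in 17 Female and 24 Male nuclei, and Adgre1 in 9 Female and 21 Male nuclei. The macrophage label thus rests on fewer detected markers there, at lower median depths of 2646.5 UMIs in the Female and 2657.5 in the Male nuclei.

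**Figure D2:**
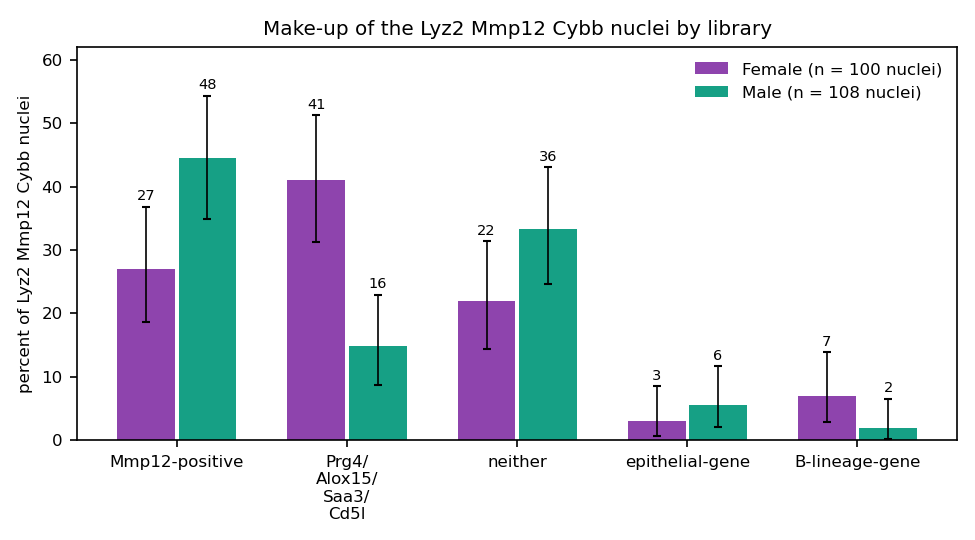
Bars give the percent of members in each of 5 groups, for both libraries, with 95% Clopper-Pearson intervals and the number of nuclei above each bar. Mmp12-positive nuclei were 27 of 100 Female and 48 of 108 Male members, and Prg4 Alox15 Saa3 Cd5l nuclei 41 and 16.

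Against resident macrophage nuclei, the members had more RNA of monocyte genes, of antigen presentation genes and of several integrins, and less of most resident macrophage genes. UMIs were summed per library and class and compared with edgeR's quasi-likelihood test with library as a block and Benjamini-Hochberg adjustment, on 4 sums with 1 residual degree of freedom. The 13 genes of the rule took no part in it. Of 9786 genes tested, 712 were higher in members (7.28%) and 575 lower (5.88%), and 13.2% were called either way. Of these, 1283 of 1287 had the same direction in both libraries. Since the calls were made on these same libraries, this is no check on them. Without the epithelial-gene and B-lineage nuclei, 594 genes were higher and 445 lower, of which 530 and 398 were also called with them. Numbers in brackets after a gene name are log2 folds from this fit. Replicates are 2 pools of different sex, and the block takes out the difference between them. These p-values therefore set the class difference against its variation between the 2 pools. With 1 residual degree of freedom, that variation was estimated mostly from all genes together. The p-values thus do not measure the spread of each gene alone. Genes that accompany the rule genes from nucleus to nucleus were selected together with them.

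Genes common to macrophages were higher in members in part. Of 15 pan-macrophage genes tested, 7 were higher in members and 1 was lower, with a median log2 fold of 0.87 against -0.004 over all genes. The higher ones included Itgam (1.70), the integrin chain CD11b, Cd14 (1.69), the endotoxin co-receptor, Tyrobp (1.56), an adaptor of activating receptors, and Ctss (1.48), the elastolytic cathepsin S. The gene that was lower was Mertk (-0.81), a receptor for apoptotic cells, and its call was lost without the 18 other nuclei (adjusted p = 0.0964). Csf1r did not pass the test, with a log2 fold of -0.38 (adjusted p = 0.269), nor did Adgre1 at 0.34 (adjusted p = 0.332). Itgam overlaps the gene model Gm49368 and Csf1r overlaps Hmgxb3, and without a stated strand setting their counts are uncertain. The same holds for Cyba and Irf8 (both overlapping Gm20388), Gas6 (Tmem255b), Cebpb (Tmem189), Ciita (Dexi), Nrap (Habp2) and Dmbt1 (Fgfr2).

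Monocyte genes were higher as a list, with 8 of 12 tested higher and 0 lower and a median log2 fold of 1.59, and 7 of 11 higher without the 18 nuclei. The higher genes were not those of a single group of members. Cx3cr1 was nearly absent from the Prg4 nuclei and Fn1 from the Mmp12-positive ones, as given further on. Of 7 genes of the list tested within members, 1 was higher and 4 were lower in Mmp12-positive nuclei. Cx3cr1, the fractalkine receptor of patrolling monocytes and of some tissue macrophages, reached 191 CPM in Female and 265 CPM in Male members, against 17.3 CPM in Female and 12.5 CPM in Male resident nuclei (CPM, counts per 1000000 UMIs of the summed nuclei). The summed level was higher in members in both libraries, and the log2 fold was 3.92 ± 0.28 (SE, edgeR adjusted p = 1.57e-06). Its annotated span (chromosome 9, 119901616 to 120069879, minus strand) covers other protein-coding genes, among them Csrnp1 and Wdr48, which makes its counts uncertain. After each nucleus was thinned to 1000 UMIs, Cx3cr1 was still detected in 14.6% of Female and 23.8% of Male members, against 1.40% of Female and 0.816% of Male resident nuclei. Unthinned, it was detected in 27 Female and 45 Male members and in 11 Female and 13 Male resident nuclei. Itgal (3.34), the integrin chain of LFA-1, Thbs1 (3.29), a matrix glycoprotein, and Fn1 (3.11), fibronectin, were higher too. Ccr2, the receptor that brings monocytes out of the bone marrow, did not pass the test (-0.22).

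Among 8 conventional dendritic cell genes, 4 were higher and 2 lower, at a median log2 fold of 0.24. Without the 18 nuclei 3 of 7 were higher and 1 was lower, at a median of -0.49. Itgax, the integrin chain CD11c, had 125 CPM in Female and 192 CPM in Male members, against 10.6 and 3.89 CPM in Female and Male resident nuclei. The summed level was higher in members in both libraries, at a log2 fold of 4.50 ± 0.43 (SE, edgeR adjusted p = 1.35e-05). Cd24a (2.50), Dpp4 (1.64) and Irf8 (1.22) were also higher, whereas Zbtb46 (-1.74), a factor of dendritic cell precursors, was lower. Irf4 (-1.47) was lower as well, a call lost without the 18 nuclei (adjusted p = 0.0832).

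Antigen presentation genes were higher in the summed UMIs of members, but not in every group of members. In the Prg4 nuclei, Cd74 was below its level in resident nuclei in both libraries, as given further on. Of 10 tested genes for MHC class II presentation, 7 were higher and 0 lower, with a median log2 fold of 1.59 and summed levels of 5601 CPM in Female and 7514 CPM in Male members, against 2379 and 1897 CPM in Female and Male resident nuclei. Cd74, the invariant chain that holds class II molecules on their way to the endosome, had 1925 CPM in Female and 2879 CPM in Male members, against 672 and 542 CPM in Female and Male resident nuclei. The log2 fold was 1.94 ± 0.23 (SE, edgeR adjusted p = 6.60e-05). H2-Ab1 (1.78), H2-Eb1 (1.77) and H2-DMa (1.68) were next, the first 2 being class II chains and the third a peptide loading factor. The co-stimulatory genes Cd80, Cd86 and Cd40 did not pass the test. Cd74 was detected in 43.8% of Female and 65.7% of Male thinned members, against 37.6% and 28.5% of Female and Male thinned resident nuclei, so that the classes differed less in how many nuclei had a UMI than in CPM in the Female library.

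Resident macrophage genes fell in members, which the rule itself favours since it set F13a1, Mrc1 and Cd163 against the rule sum. Of 20 genes tested, 16 were lower and 1 higher, with a median log2 fold of -2.54, and 17 were lower without the 18 nuclei. Lyve1, a hyaluronan receptor, had 21.2 and 28.4 CPM in Female and Male members, against 481 and 621 CPM in Female and Male resident nuclei (log2 fold -4.50 ± 0.27, SE, edgeR adjusted p = 2.58e-07). Rbpj, the DNA-binding partner of Notch, had 664 and 798 CPM in Female and Male members, against 10223 and 9835 CPM in Female and Male resident nuclei (log2 fold -3.81 ± 0.21, SE, edgeR adjusted p = 1.51e-07). Members were below resident nuclei in both libraries for each of these genes. Cd209f (-6.43) and Clec10a (-5.38), both lectins, and Folr2 (-4.63), a folate receptor, also fell. The only gene of the list that was higher was Pf4 (1.13), a chemokine. Cbr2, a carbonyl reductase found in resident macrophages and in club cells, was not called over all members (0.39), and had a log2 fold of -4.02 (edgeR adjusted p = 1.11e-04) without the 18 nuclei.

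The 12 named genes with the largest fall were at 0 UMIs in the members of both libraries, so their folds are bounds against 3 counts over the members. Cd209g, a DC-SIGN related lectin, was at least 71.3-fold lower, with 0 UMIs in members against 450 Female and 476 Male UMIs in resident nuclei. C6, a component of the complement attack complex, was at least 31.7-fold lower, and Ccl8, a chemokine for monocytes and T cells, at least 11.2-fold lower. The other 9 were Chp2, Arpp21, Col11a1, Fxyd2, Il4, Cd200r4, Icos, Nrap and Ccl7, with bounds between 4.01 and 7.93. Arpp21 and Col11a1 were called on the strength of single nuclei, which held 97.2% of the Female Arpp21 and 88.2% of the Female Col11a1 UMIs of resident nuclei. DESeq2 called none of the 12, with adjusted p = 0.199 for Cd209g and 0.434 for C6 and no adjusted p for the other 10. Reads of Cd209g can be split with other members of the Cd209 family.

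Lipid-associated macrophage genes were mixed, with 6 of 19 higher, 1 lower and a median log2 fold of 0.55, and 7 higher and 1 lower without the 18 nuclei. Itgax (4.50, also on the dendritic list), Cd9 (2.50), a tetraspanin, Lgals3 (1.99), galectin-3, and Abcg1 (1.88), a cholesterol exporter, were higher, and Abca1 (-0.99), another cholesterol exporter, was lower. Trem2, the lipid receptor that gives these macrophages one of their names, had a log2 fold of 0.08 and did not pass the test (adjusted p = 0.929). Of 13 efferocytosis and complement genes, 3 were higher, namely Axl (2.29), Itgav (2.27) and Cd300lb (1.29), and 2 were lower, namely Gas6 (-4.04), a ligand of Axl, and Pros1 (-0.72). Without the 18 nuclei 6 were higher and 1 was lower, with C1qb (0.71, edgeR adjusted p = 0.0397) and C1qc (0.73, edgeR adjusted p = 0.0409), 2 chains of the first complement component, among the higher.

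Matrix proteases other than the rule gene Mmp12 were mostly higher or not called. Of 11 matrix protease and inhibitor genes tested, 6 were higher and 1 lower. Mmp13, collagenase-3 (chromosome 9, 7272514 to 7283331, plus strand), had 17 Female and 55 Male UMIs in members, against 3 Female and 1 Male UMIs in resident nuclei, or 40.0 and 120 CPM in Female and Male members, against 1.99 and 0.432 CPM in Female and Male resident nuclei. The log2 fold was 6.08 ± 0.65 (SE, edgeR adjusted p = 3.14e-05). Mmp14 (3.24), a membrane-bound collagenase, and Plaur (2.07), the urokinase receptor, were higher, and Mmp9 (-4.21), gelatinase B, was lower, with 5 Female and 0 Male UMIs in members against 190 Female and 180 Male UMIs in resident nuclei. NADPH oxidase genes other than Cybb showed no common direction. Cyba (1.36), which pairs with the Cybb product, was higher, and Nox4 (-1.93) and Nrros (-0.95) were lower.

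Signalling genes did not move together. Of 10 cytokine and chemokine genes, Cxcl16 (3.93), a membrane-bound chemokine, was higher, and Ccl7, Ccl8 and Ccl6 (-1.70) were lower. Without the 18 nuclei Ccl7 lost its call (adjusted p = 0.0525) and Tgfb1 (0.90, edgeR adjusted p = 0.0330) was called higher. Cxcl16 overlaps Zmynd15, which makes its counts uncertain. Interferon response genes included 0 higher and 4 lower of 12, led by Oas2 (-1.78), an antiviral RNA sensor. Only 1 of 12 was lower without the 18 nuclei. Of 18 pattern recognition receptors, 5 were higher and 4 lower. Fcgr4 (4.33), an activating Fc receptor, and Clec7a (2.67), the beta-glucan receptor dectin-1, rose, whereas Clec4a1 (-1.60) and Tlr4 (-1.02) fell. Without the 18 nuclei 6 were higher and 1 was lower, and Tlr4 lost its call (adjusted p = 0.0655). Of 23 myeloid transcription factors, 5 were higher and 5 lower, and 5 and 4 without the 18 nuclei. Runx3, a Runt-domain factor, had 96.5 CPM in Female and 127 CPM in Male members, against 7.98 and 3.03 CPM in Female and Male resident nuclei. Maf (-2.81), a factor of resident macrophages, and Tfec (-2.34) were lower, and Nr4a1 (1.55) was higher. Of 4 proliferation genes, 0 were called in either direction, at a median log2 fold of 0.65. Of 10 immediate early genes, Junb (1.76) and Nr4a1 were higher and 0 lower.

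The 12 named genes with the largest rise were mostly those of the Prg4 and the epithelial-gene nuclei. Slpi (chromosome 2, 164354070 to 164389095, minus strand), a secreted protease inhibitor, had 438 Female and 427 Male UMIs in members, against 1 Female and 1 Male UMI in resident nuclei. This is a ratio of 1871 with a counting interval of 516 to 15477 (edgeR adjusted p = 3.79e-09), and 99.9% of the UMIs lay in the Prg4 nuclei. Prg4 (chromosome 1, 150449412 to 150466165, minus strand, overlapping Tpr) had 1683 CPM in Female and 599 CPM in Male members, against 5.98 and 0.432 CPM in Female and Male resident nuclei. Its log2 fold was 8.59 ± 0.36 (SE, edgeR adjusted p = 2.31e-08). Alox15 (chromosome 11, 70344152 to 70352031, minus strand) had 301 Female and 170 Male UMIs in members, against 4 Female and 0 Male UMIs in resident nuclei, a log2 fold of 8.76 ± 0.43 (SE, edgeR adjusted p = 4.83e-08). Prg4 and Alox15 were among the genes that defined the group afterwards, and Slpi was not. Saa3 had 245 Female and 36 Male UMIs in members, against 2 Female and 0 Male UMIs in resident nuclei, a ratio of 608 (167 to 5045). Vmn2r26, a vomeronasal receptor gene, had 68 Female and 53 Male UMIs in members, against 0 Female and 2 Male UMIs in resident nuclei, a ratio of 262 (70.9 to 2186).

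The other 7 named genes with the largest rise had most of their UMIs in the 9 epithelial-gene nuclei. They were Dmbt1, Ehf, Deup1, Ltf, Sec14l3, Chst9 and Ankfn1, of which Ehf encodes an epithelial transcription factor and Ltf lactoferrin. Deup1, a gene of multiciliated cells, had 55 Female and 3 Male UMIs in members, each from 1 nucleus, and Ankfn1 had all its 82 Female UMIs in 1 nucleus. DESeq2 did not call Dmbt1, Ehf or Deup1. Of the 712 higher genes, 247 (34.7%) had most of their UMIs in the Mmp12-positive nuclei, 144 (20.2%) in the Prg4 nuclei and 103 (14.5%) in the epithelial-gene nuclei. These groups held 35.7%, 28.3% and 11.6% of all member UMIs, so the counts do not show that any group supplied more calls than its size gives. In 20 of the higher genes, 1 nucleus held most UMIs. The part of single groups in each list call was not tested beyond the recount without the 18 nuclei.

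**Figure D3:**
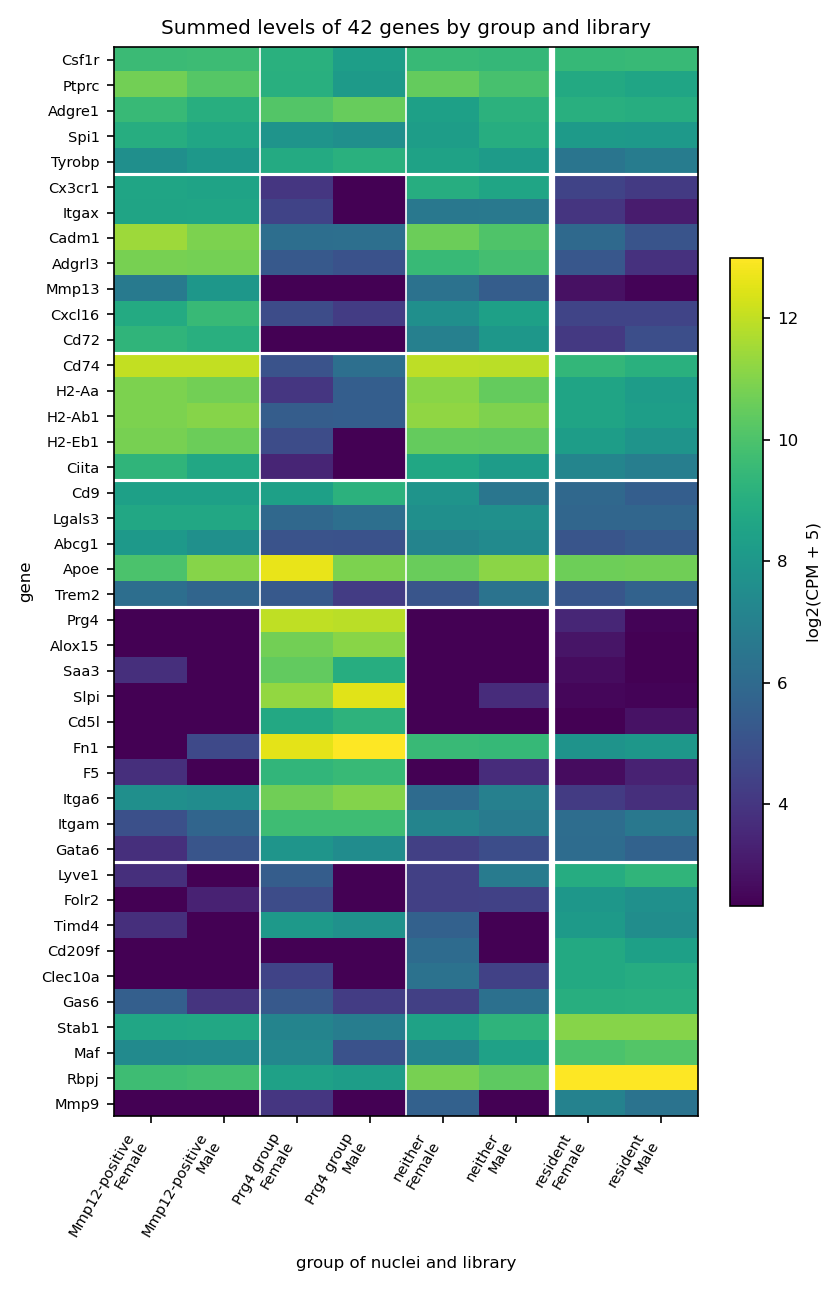
The heat map gives log2(CPM + 5) of 42 genes (rows, chosen after their values were seen) in Mmp12-positive nuclei, Prg4 Alox15 Saa3 Cd5l nuclei, nuclei with neither, and resident macrophage nuclei, each in the Female and the Male library. The Prg4 nuclei share Prg4, Alox15, Slpi and Fn1 in both libraries, and the Mmp12-positive nuclei share Itgax, Cx3cr1 and Cd74. Cx3cr1 and Cd74 are also high in the nuclei with neither.

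Within the members, Mmp12-positive nuclei were set against Mmp12-negative ones with the same test. The Mmp12-positive nuclei had more RNA of class II, of Itgax and of Mmp13, and less of the genes of the Prg4 nuclei, which are part of the Mmp12-negative nuclei. Cd74 and Cx3cr1 were not particular to the Mmp12-positive nuclei. The nuclei with neither, which are Mmp12-negative as well, had similar levels of Cd74 and slightly higher levels of Cx3cr1, given further on. Of 3994 genes tested, 290 were higher in Mmp12-positive nuclei (7.26%) and 416 lower (10.4%), and 17.7% were called either way. Since Mmp12 is a rule gene, the negative nuclei had to reach the rule sum with Lyz2 and Cybb. Without the 18 nuclei 269 genes were higher and 363 lower. Leaving out nuclei whose barcode sequence occurs in both libraries took the counts to 70 and 166, and leaving out doublet calls to 191 and 305.

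Of 8 tested MHC class II presentation genes, 7 were higher and 0 lower in Mmp12-positive nuclei, at a median log2 fold of 1.36 against -0.03 over all genes. Cd74 had 4097 CPM in Female and 4180 CPM in Male Mmp12-positive nuclei, against 1079 CPM in Female and 1902 CPM in Male Mmp12-negative nuclei (log2 fold 1.45 ± 0.30, SE, edgeR adjusted p = 8.56e-04). Ciita (1.81), the master activator of class II genes, H2-Eb1 (1.56) and H2-Aa (1.44) were higher too. Of 16 lipid-associated genes, 7 were higher, among them Lgals3 (1.97), Cd63 (1.83) and Abcg1 (1.62), and 2 were lower, namely Ctsd (-1.83) and Msr1 (-1.22). Of 8 matrix protease genes, 4 were higher, among them Mmp13 (2.98) and Mmp14 (2.12), and Timp2 (-1.25), an inhibitor, was lower. Of 13 pan-macrophage genes, Lcp1 (1.72), Ptprc (1.13) and Ctss (0.86) were higher and Itgam (-3.23) was lower, whereas Csf1r (0.75, adjusted p = 0.0949) and Adgre1 (-0.27, adjusted p = 0.674) did not pass the test. Of 7 monocyte genes, Cx3cr1 (1.17) was higher, and Fn1 (-8.00), Thbs1 (-3.30), Cebpb (-2.00) and Hp were lower. Hp, haptoglobin, had a ratio of 0.0705 with a counting interval of 0.00832 to 0.268. Of 11 efferocytosis genes, Axl (1.94), Itgav (1.56) and Elmo1 (1.32), a regulator of engulfment, were higher and 0 lower. Of 16 transcription factors, Runx3 (1.54), Mitf (1.30) and Irf8 (1.13) were higher and Cebpb was lower. None of 6 NADPH oxidase and 5 interferon response genes was called.

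The 8 named genes with the largest rise in Mmp12-positive nuclei were Dtx4, St18, Asb2, Hs3st3a1, Itgax, Fgf13, Tnfsf13b and Zmynd15. Dtx4, a ubiquitin ligase of the Notch pathway, had 19 Female and 38 Male UMIs in Mmp12-positive nuclei, against 4 Female and 3 Male UMIs in Mmp12-negative nuclei (log2 fold 3.70 ± 0.58, SE, edgeR adjusted p = 3.43e-05). St18, a zinc finger factor, had 38 and 63 UMIs in Female and Male Mmp12-positive nuclei, against 7 and 6 UMIs in Female and Male Mmp12-negative nuclei (log2 fold 3.69 ± 0.45, SE, edgeR adjusted p = 1.24e-06). Both were higher in Mmp12-positive nuclei of both libraries. Itgax had 369 and 387 CPM in Female and Male Mmp12-positive nuclei, against 29.4 and 45.9 CPM in Female and Male Mmp12-negative nuclei (log2 fold 3.25 ± 0.40, SE, edgeR adjusted p = 1.65e-06). Tnfsf13b (3.05) encodes the B-cell survival factor BAFF, and Hs3st3a1 (3.36), which overlaps F930015N05Rik, a heparan sulfate sulfotransferase. Zmynd15 (3.05) and Cxcl16 (2.37) overlap each other and cannot be told apart without strand.

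The 8 named genes with the largest fall were at 0 UMIs in all Mmp12-positive nuclei. Prg4 was at least 183-fold lower, Slpi at least 160-fold, Alox15 at least 87.3-fold and Padi4, an enzyme that citrullinates histones, at least 77.3-fold. These 4 were genes of the Prg4 nuclei. Bpifa1, Scgb3a1, Cbr2 and Cyp2f2 were genes of the epithelial-gene nuclei, at bounds between 73.4 and 160. None of these 8 was called by DESeq2.

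**Figure D4:**
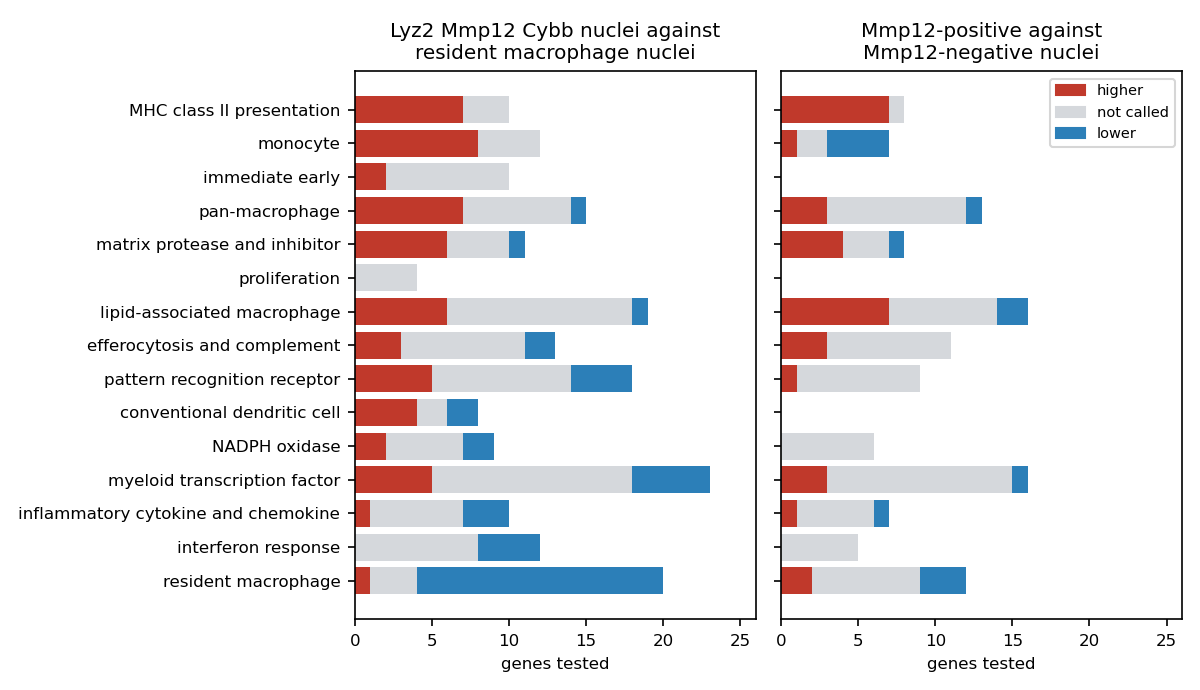
Stacked bars count the genes of each list that were higher, not called or lower by edgeR's quasi-likelihood test, in members against resident nuclei (left) and in Mmp12-positive against Mmp12-negative members (right), for lists with at least 4 genes tested. Resident macrophage genes were lower in members for 16 of 20, and MHC class II genes were higher in 7 of 10 genes on the left and 7 of 8 on the right.

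Genes in the following account of the single groups were picked after their values were seen, and none is tested. The Prg4 nuclei combined pan-macrophage RNA with little class II RNA. Adgre1 reached 1116 CPM in Female and 1481 CPM in Male Prg4 nuclei, and Itgam 810 and 809 CPM, against 25.1 and 51.0 CPM of Itgam in Female and Male Mmp12-positive nuclei. Fn1 reached 5982 and 8860 CPM in Female and Male Prg4 nuclei, against 0 and 20.4 CPM in Female and Male Mmp12-positive nuclei. Cd74 was at 28.3 and 68.6 CPM in Female and Male Prg4 nuclei, against 672 and 542 CPM in Female and Male resident nuclei. Cx3cr1 was at 11.3 CPM in Female and 0 CPM in Male Prg4 nuclei.

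Gata6, the transcription factor of macrophages of the serous cavities in mice, had 232 and 178 CPM in Female and Male Prg4 nuclei, against 62.5 and 46.7 CPM in Female and Male resident nuclei. Timd4, a phosphatidylserine receptor of long-lived macrophages, had 272 and 206 CPM in Female and Male Prg4 nuclei, close to the 277 and 182 CPM in Female and Male resident nuclei. Padi4 had 1796 and 1289 CPM in Female and Male Prg4 nuclei. Most Lyz2 UMIs lay in these nuclei, 2101 of 2308 in the Female and 843 of 1190 in the Male library, at a median of 43 UMIs per Female and 37.5 per Male nucleus. In Mmp12-positive nuclei the median was 0 Lyz2 UMIs for Female and 1 for Male nuclei. The median mitochondrial share was 0.584% in Female and 0.815% in Male Prg4 nuclei, against 0.0939% and 0.0979% in Female and Male Mmp12-positive nuclei, and its part in these differences was not tested. In the whole series, members included, 87 Female and 149 Male nuclei met the Prg4 threshold, of which 2 Female and 1 Male were resident nuclei.

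The Mmp12-positive nuclei had adhesion genes that resident nuclei had at far lower levels. Cadm1, a cell adhesion molecule, had 2788 CPM in Female and 1907 CPM in Male Mmp12-positive nuclei, against 58.5 and 29.0 CPM in Female and Male resident nuclei. Adgrl3, an adhesion receptor known from synapses, had 1797 and 1733 CPM in Female and Male Mmp12-positive nuclei, against 32.6 and 9.51 CPM in Female and Male resident nuclei. Both genes were higher in Mmp12-positive nuclei of both libraries. Apoe, a lipid carrier, differed in direction between the libraries, with 1016 and 2161 CPM in Female and Male Mmp12-positive nuclei, against 1574 and 1634 CPM in Female and Male resident nuclei.

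Nuclei with neither gene set shared class II RNA with the Mmp12-positive nuclei and had more Ccr2. Cd74 reached 3906 and 3762 CPM in these Female and Male nuclei, and Cx3cr1 499.7 and 388 CPM, beside 378 and 357 CPM of Cx3cr1 in Female and Male Mmp12-positive nuclei. Ccr2 had 257 and 230 CPM in Female and Male nuclei with neither, against 16.8 and 51.0 CPM in Female and Male Mmp12-positive nuclei and 0 CPM in the Prg4 nuclei of both libraries. Plac8, a gene of monocytes, had 75.7 and 119 CPM in the Female and Male nuclei with neither.

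With 1 library per sex, Female and Male members were compared by size of difference and without a test. Of 3994 genes, 127 were at least 2-fold higher in Female members (3.18%) and 105 at least 2-fold lower (2.63%), with 5.81% either way after 5 CPM was added to both levels. Without the 18 nuclei 111 genes were higher and 89 lower. Among the 8 named genes each way, most belonged to the Prg4 or the epithelial-gene nuclei. Saa3 had 245 UMIs in Female against 36 in Male members (log2 ratio 2.80). Cxcl13, a B-cell attracting chemokine, had 101 Female against 11 Male UMIs (3.06), and Tgfb2, transforming growth factor beta 2, 202 Female against 24 Male UMIs (3.06). Nearly all UMIs of these 3 lay in the Prg4 nuclei, which were 41 of the Female and 16 of the Male members. Marco, a scavenger receptor, had 54 UMIs in Female members, in 5 Prg4 nuclei, against 0 in Male members, which puts the ratio at 15.2 or above. Cdc20b had 115 Female against 0 Male UMIs, in 1 epithelial-gene nucleus, and Opcml, Deup1 and Ankfn1 were the other higher genes.

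Of the 8 named genes lower in Female members, 6 had nearly all their UMIs in the epithelial-gene nuclei. Scgb3a1, an airway secretoglobin, had 25 UMIs in Female against 496 in Male members (-4.09), and Reg3g, an antimicrobial lectin, 10 Female against 107 Male UMIs (-3.07). Cyp2a5, Bpifb1, Dmbt1 and Pigr, the antibody transporter of mucosa, were the others, with 20, 0, 1 and 10 Female UMIs against 137, 53, 58 and 67 Male UMIs. Such nuclei were 3 of the Female and 6 of the Male members. Among the 8 lower genes, only Bmp6, a growth factor of the BMP family, with 31 Female against 173 Male UMIs (-2.30), and Ppara, a lipid-sensing nuclear receptor, with 6 Female against 45 Male UMIs (-2.43), had most Male UMIs outside the epithelial-gene nuclei, and 74 of the Male Bmp6 UMIs lay in Mmp12-positive nuclei.

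Reporter UMIs of members and of resident nuclei had similar GFP shares. GFP made up 23.8% (15.2 to 34.3%) of 84 GFP and tdTomato UMIs in Female members and 21.8% (14.5 to 30.7%) of 110 in Male members. Resident nuclei had 25.5% (20.9 to 30.6%) and 23.8% (20.1 to 27.9%) in the Female and Male libraries, so the intervals overlap, and smooth muscle gated nuclei, many of which descend from neural crest, had 52.8% and 51.6%. Neither reporter gene was called in members against resident nuclei. How GFP UMIs came to be counted in macrophage nuclei was not tested.

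Genes of smooth muscle cells and fibroblasts were lower in members or not called. Of 6 smooth muscle genes 4 were lower, and of 7 fibroblast genes 4 were lower, with 0 higher in both lists. Without the 18 nuclei 3 were lower in each. The rule itself favours such falls, since the rule sum of members had to exceed Myh11, Acta2 and Lmod1, and also Pdgfra and Dcn. Resident nuclei had only the smooth muscle limit. Summed smooth muscle levels, which include Myh11, Acta2 and Lmod1, were 595 and 354 CPM in Female and Male members. They were 895 and 1115 CPM in Female and Male resident nuclei. Endothelial genes were not called, with 0 of 9 either way. Of 3 neutrophil genes tested, Csf3r (0.89) and Ltf were higher and Mmp9 was lower, and Ltf was not tested without the 18 nuclei. The list had summed levels of 426 and 378 CPM in Female and Male members against 244 and 163 CPM in Female and Male resident nuclei. These sums include Ltf, whose member UMIs all lay in the epithelial-gene nuclei, and S100a8 and S100a9, which the rule limited in members. The defining neutrophil genes Retnlg and Cxcr2 were at 0 UMIs in members. Both tested mesothelial genes, Msln and Muc16, were higher, with most of their UMIs in the epithelial-gene nuclei, and neither reached the UMI minimum without the 18 nuclei. Of 3 B-cell genes Bank1 (-1.32) was lower, and without the 18 nuclei Ighm (-1.13, edgeR adjusted p = 0.0394) was lower too. Of 8 adipocyte genes Acsl1 was higher, a call lost without the 18 nuclei (adjusted p = 0.0889), and of 2 Schwann and glial genes Mbp (1.15) was higher, while 0 T and NK, mast cell or cardiomyocyte genes were called among the few tested.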

How the data were processed

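Single-nucleus RNA was sequenced in 2 libraries, Female and Male. The authors deposited unnormalized UMI counts for each barcode. The matrices came from Cell Ranger 7.0.0 per the file headers, and GRCm38, STAR and Seurat 4.4.0 are named per the submitters' processing notes. Strand and intron settings are not given in these sources. Total depth was 79294181 UMIs over 18872 Female barcodes and 77989549 UMIs over 20659 Male barcodes, and members gave 424915 and 457432 UMIs. Positions came from GENCODE M21 (GRCm38), matched by Ensembl identifier for 54723 of 54754 features.

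UMIs were summed per library and class. Genes with at least 50 UMIs over the 4 sums, without the 13 rule genes, entered the quasi-likelihood test of edgeR 4.0.16 (TMM, library as a block, Benjamini-Hochberg adjusted p of 0.05) in R 4.3.3. Each library holds both classes of the same pool of animals, from which the block comes. Female and Male were compared after adding 5 CPM, for genes with 50 UMIs and at least 20 CPM in either, at 2-fold. Shares carry 95% Clopper-Pearson intervals, ratios exact conditional intervals, and a zero is set at 3 counts over a class. These cover counting error only. Doublets were called with scrublet in scanpy 1.11.5 (expected rate 0.08) and kept. For thinned shares each nucleus was drawn down to 1000 UMIs, leaving 96 Female and 105 Male members and 428 Female and 613 Male resident nuclei. Other software was matplotlib 3.10.9, pandas 2.3.3, scipy 1.17.1 and numpy 2.4.6 under Python 3.11.15.

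The members, the gene lists and the tests were chosen with earlier results of these data known. Named genes were the 12 called genes with the largest folds each way (8 for Mmp12-positive against negative and for Female against Male), with the same sign in both libraries, and up to 4 genes per list. For the largest folds of the tested comparisons, the CPM in the higher class also had to reach a minimum. This was the gene's CPM over all nuclei that were neither members nor resident nuclei. Gene models without a proper symbol, mitochondrial and ribosomal genes, Xist, Tsix and genes of chromosome Y were left out. The 5 groups of members and other named genes were chosen after values were seen. On simulated counts for members against resident nuclei (9742 genes), the test recovered 29% of genes changed 2-fold and 89% of those changed 4-fold, with 10 false calls among 128. On those for Mmp12-positive against negative nuclei (4031 genes), it recovered 36% and 85%, with 5 false calls among 126. The simulated counts had the same dispersion for every gene and a library effect equal in both classes. They held no genes supplied by single nuclei and no mixture of groups, so these rates need not hold for the real sums. Alternatives were other normalizations, DESeq2 1.42.0, other count filters, a stricter member rule, thinned counts, no block, and leaving out doublets, shared barcode sequences, deep nuclei, and epithelial-gene and B-lineage nuclei.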

Additional observations from a re-analysis of the deposited data

Results flagged for a closer look

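The 10 tested cytokine and chemokine genes had medians of opposite sign in the 2 libraries when members were set against resident nuclei, a median log2 ratio of 0.161 for Female and -0.0074 for Male. Both medians are near 0, and the difference between the libraries was not tested.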

How the results depend on the processing

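With 1 library per sex and 2 sums per class, a library left out leaves no test, so only log2 ratios within each library were available. All 40 named genes had the same direction in both, but their choice required this, so it is no check on them. Without the replicate block (the pairing of classes within a pool), 642 genes were higher and 480 lower in members and 199 and 272 in Mmp12-positive nuclei, against 712, 575, 290 and 416 with it, and the calls of Col11a1 (adjusted p = 0.287) and Scgb3a1 (0.0521) were lost. DESeq2 called 331 higher and 228 lower genes in members and 53 and 71 in Mmp12-positive nuclei. It called none of the named genes that were at 0 UMIs in members or in Mmp12-positive nuclei (Cd209g had an adjusted p of 0.199). At 200 UMIs or more, 423 genes were higher in members, and 167 and 130 were higher and lower in Mmp12-positive nuclei, while no minimum gave 1137 higher genes in members. Thinned counts gave 286 and 252 calls in members and 96 and 120 in Mmp12-positive nuclei. For the latter, leaving out doublet calls gave 191 higher genes and leaving out shared barcode sequences 70 and 166. Without the epithelial-gene and B-lineage nuclei, Ccl7 lost its call (adjusted p = 0.0525). In Female against Male members, 46 and 23 genes passed 2-fold after thinning, 23 and 17 at 200 UMIs, and 63 were lower with 20 CPM added. Requiring a rule sum of 5 took the members to 0.419% of Female and 0.387% of Male nuclei, and to 14.5% and 10.6% of members and resident nuclei together, and left too few Female Mmp12-positive nuclei for that split to be run. Cbr2, not called over all members (log2 fold 0.39), was lower without those nuclei (-4.02), and list medians changed sign for conventional dendritic cell genes (-0.49 against 0.24), adipocyte genes (-0.24 against 0.27), neutrophil genes (-1.40 against 0.89) and cytokine genes (0.03 against -0.11). None of the named genes with the largest folds changed direction under the alternatives in which it still had a value. Many had none. Of the 24 named genes of members against resident nuclei, 6 had a value in thinned counts and 6 at 200 UMIs or more. Those with most UMIs in the epithelial-gene nuclei had no value once these nuclei were left out. The causes of these changes were not tested beyond what each alternative removes. Depth limits what these nuclei can show, since genes under 50 UMIs were not tested and 1 nucleus can supply most UMIs of a rare gene.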
